A study of Mus musculus with 2 samples.

Results

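A set of 10 genes of the cortical excitatory lineage was followed through single-cell RNA libraries of the mouse forebrain around birth. They are the proneural basic helix-loop-helix (bHLH) factors Neurog1 and Neurog2, the T-box factors Eomes and Tbr1, the zinc-finger factor Insm1, the bHLH factors Neurod1, Neurod2, Neurod4 and Neurod6, and Mfap4, which encodes a microfibril-associated matrix protein. These 10 genes were taken from a list of names, with no threshold on their values, out of 31054 features in the P2 matrix (EYFP included) and 31053 genes in the E18 matrix. In the kept cells 9 of the 10 had at least 10 unique molecular identifiers (UMIs) at P2 and 9 at E18. Neurog1 was the exception in both, with 0 UMIs at P2 and 4 UMIs at E18.

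The P2 library came from postnatal day 2 mice of genotype Emx1Cre;R26Eyfp fl/fl, in which Cre under Emx1, a gene of the cortical primordium, switches on EYFP, so that cells of cortical origin and their progeny carry it. The walls of the lateral ventricles were dissected there, dorsal and lateral ventricular-subventricular zone (V-SVZ), once the cortex had been taken away. The E18 library came from CD1 mice at embryonic day 18, from tissue above the lateral ventricles that holds both cortex and dorsal V-SVZ. After papain digestion, live nucleated cells were sorted from both tissues, with no gate on EYFP stated. There was 1 library per age, no count of animals per library is stated, and no difference could be tested. Age, dissection, mouse line and library cannot be told apart. All intervals are exact 95% intervals that cover counting error only. The P2 matrix held 2778 barcodes and 42572208 UMIs, of which 2296 cells were kept with a median of 12525 UMIs. The E18 matrix held 2922 barcodes and 19986915 UMIs, of which 2496 cells were kept with a median of 6574 UMIs. The libraries shared 0 barcodes.

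In the developing cortex, radial glia that express Pax6 switch on Neurog2, which activates Eomes in intermediate progenitors. Eomes is then replaced by Neurod1 and by Tbr1 and the later Neurod factors in newborn glutamatergic neurons, while Insm1 promotes the formation of delaminating progenitors. Neurod2 and Neurod6 persist in pyramidal neurons, and Tbr1 is retained mainly in early-born deep-layer neurons. In the ventral forebrain the corresponding steps are run by Gsx2 and the Dlx factors, which lead to inhibitory neurons.

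Promoter sequences are shown for an early pair, Neurog2 and Eomes, and for the latest pair, Neurod2 and Neurod6, which lie at different places in the order described next. Neurog1 and Neurod4 came earlier, on few UMIs, and are not shown. Neurog and Neurod proteins bind the E-box, of which CANNTG (read the same on both strands) is the general form. The 250 bases before the start were taken from RefSeq on build GRCm38.p6, which had an entry for 8 of the 10 genes (9 starts, as Neurod4 has 2). Each sequence runs 5′ to 3′ along the strand of the gene, and capitals mark CANNTG. The Neurog2 window is chr3:127632886-127633135 (plus strand), the Eomes window chr9:118477939-118478188 (plus strand), the Neurod2 window chr11:98329646-98329895 (minus strand) and the Neurod6 window chr6:55681264-55681513 (minus strand).
Neurog2: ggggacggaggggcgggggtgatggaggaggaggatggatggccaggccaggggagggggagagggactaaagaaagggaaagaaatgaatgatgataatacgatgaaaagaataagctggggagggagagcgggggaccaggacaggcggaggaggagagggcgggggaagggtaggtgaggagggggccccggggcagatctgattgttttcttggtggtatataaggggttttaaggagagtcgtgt
Eomes: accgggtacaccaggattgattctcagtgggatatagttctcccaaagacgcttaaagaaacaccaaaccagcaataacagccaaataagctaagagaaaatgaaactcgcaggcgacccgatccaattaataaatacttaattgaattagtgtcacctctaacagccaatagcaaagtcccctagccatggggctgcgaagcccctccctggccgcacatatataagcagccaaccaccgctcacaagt
Neurod2: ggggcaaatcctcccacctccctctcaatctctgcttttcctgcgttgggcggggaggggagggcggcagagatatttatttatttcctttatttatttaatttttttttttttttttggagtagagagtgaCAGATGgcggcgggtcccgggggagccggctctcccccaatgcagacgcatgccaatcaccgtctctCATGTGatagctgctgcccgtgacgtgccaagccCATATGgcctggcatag
Neurod6: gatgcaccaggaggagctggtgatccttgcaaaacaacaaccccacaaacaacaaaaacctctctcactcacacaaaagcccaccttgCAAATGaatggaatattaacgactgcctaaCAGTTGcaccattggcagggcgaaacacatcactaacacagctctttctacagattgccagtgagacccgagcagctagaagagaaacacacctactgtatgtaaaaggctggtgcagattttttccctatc
The windows of Neurog2 and Eomes held 0 matches to CANNTG, that of Neurod2 held 3 and that of Neurod6 held 2. In all, 4 of the 8 genes had at least 1 match, against 66.2% of 32851 promoter windows of the same length, so a match was common and its presence or absence here is only a description of these letters. CAGATG, an E-box read on both strands as CAGATG or CATCTG, stood once, at -118 from the Neurod2 start, and in 14.4% of all windows. CAGCTG was in 0 of the 8 genes and in 13.001% of all windows. The T-box core AGGTGT, read on both strands, was found in 2 of the 8 genes, Neurod4 and Neurod6, and in 11.8% of all windows.

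The genes lie on separate chromosomes or far apart. On GRCm38, Neurog2 is at chr3:127633135-127635631, Eomes at chr9:118478212-118486132, Insm1 at chr2:146221921-146225020, Neurod1 at chr2:79452521-79456751 and Tbr1 at chr2:61802930-61814114. Neurod2 is at chr11:98325415-98329648, Mfap4 at chr11:61485431-61488900, Neurod6 at chr6:55677822-55681263, Neurod4 at chr10:130268152-130280240 and Neurog1 at chr13:56250478-56252163. Each span covers the whole annotated gene, UTRs and introns included.

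Cells were grouped into clusters without the 10 genes, and clusters were named from markers that also leave them out, so that the levels by class below were not set by the grouping. A name means that a cluster is like the type, not that identity was shown. At E18 there were 92 stem-like, 110 cycling, 100 excitatory intermediate progenitor-like (IP-like), 831 migrating excitatory-like, 688 upper-layer-like and 313 deep-layer-like cells. The other classes at E18 were 168 MGE interneuron-like cells (from the medial ganglionic eminence), 89 inhibitory neuroblast-like cells, 52 oligodendrocyte precursor-like (OPC-like) cells, 10 microglia-like cells and 43 cells left unnamed. Levels are summed UMIs of a gene in each 1000000 UMIs of the class (CPM), and each gene is compared only with itself.

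At E18, Neurog2, Eomes, Mfap4, Neurod4, Neurog1, Neurod1 and, by little, Insm1 had their highest class level in IP-like cells. No share over all genes is set beside this, so it only describes these genes. Among IP-like cells Eomes was found in 93% and Mfap4 in 89%. Neurog2, the proneural factor that starts the series, stood at 1016 CPM (936 to 1101) in IP-like cells, against 63.1 CPM in stem-like, 98.5 CPM in cycling and 24.0 CPM in migrating-like cells. Eomes stood at 924 CPM (848 to 1006) in IP-like cells, against 18.0 CPM in stem-like, 56.4 CPM in cycling and 40.1 CPM in migrating-like cells. Both were thus concentrated in one small class. Mfap4 stood at 624 CPM (561 to 691) in IP-like cells, against 175 CPM in stem-like and 121 CPM in cycling cells, a broader spread over progenitors. Neurod4, a bHLH factor of early neurogenesis, had 18 of its 23 UMIs in IP-like cells. All 4 UMIs of Neurog1 came from 2 IP-like cells, which is too few to place it beyond that class.

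Neurod1, a factor of newborn neurons, stood at 131 CPM (103 to 164) in IP-like cells and 77.4 CPM over all migrating-like cells, but at 214 CPM (184 to 247) in migrating cluster 5. It was at 14.0 CPM in upper-layer-like and 6.78 CPM in deep-layer-like cells. Cluster 5 is the migrating-like cluster nearest to the progenitors, 173 cells in which Eomes was still at 192 CPM (164 to 223). Tbr1 stood at 243 CPM (211 to 278) in the same cluster, with 87.7 CPM in upper-layer-like and 143 CPM in deep-layer-like cells. Tbr1 therefore had 2 separated high points, since deep-layer cluster 8, led by Hs3st4 and Tle4, reached 266 CPM. Neurod2 was at 224 CPM (188 to 266) in IP-like cells, 1158 CPM over all migrating-like cells, 747 CPM in upper-layer-like and 533 CPM in deep-layer-like cells. Neurod6 was already at 656 CPM (592 to 725) in IP-like cells and stayed between 1115 and 1516 CPM in every later excitatory class and migrating-like cluster. Insm1 was high over several steps, at 457 CPM (417 to 500) in cycling, 462 CPM (409 to 521) in IP-like, 371 CPM in migrating-like and 18.9 CPM in deep-layer-like cells.

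**Figure D1:**
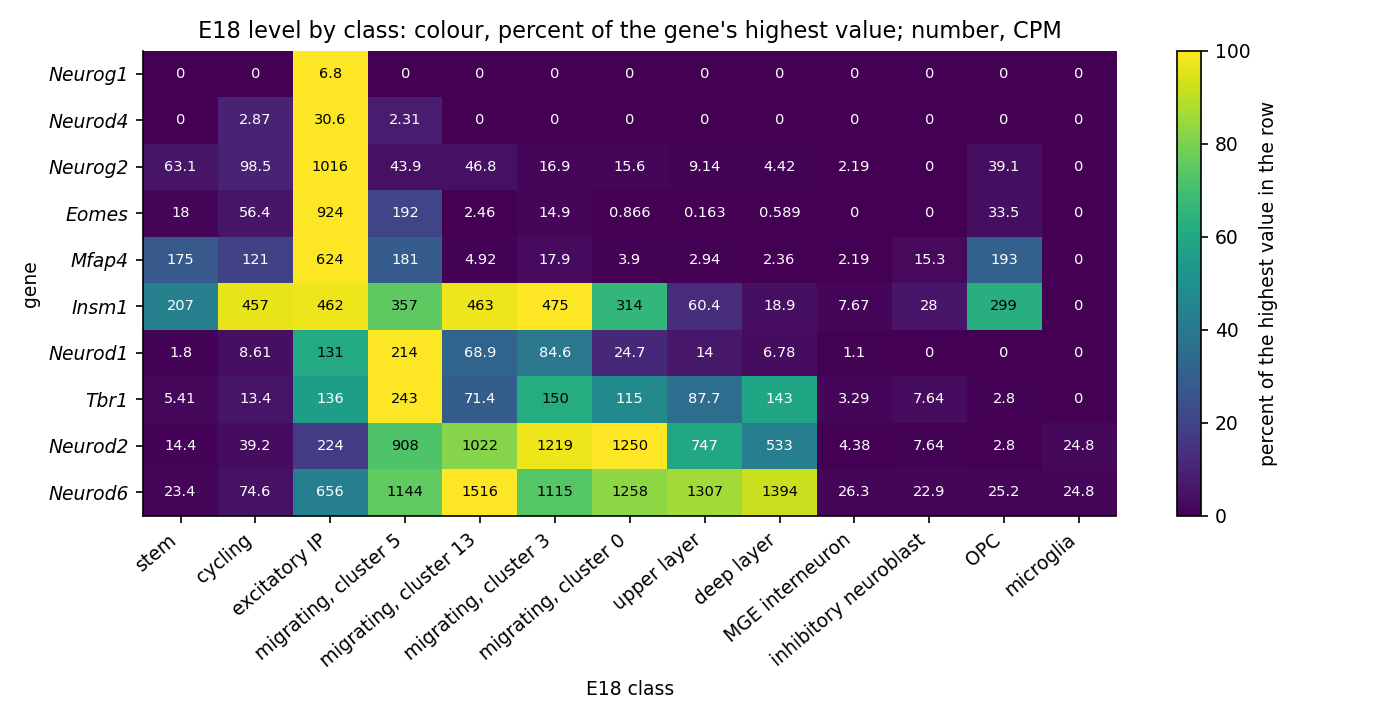
E18 level of each gene (rows) by class or cluster (columns), with CPM printed in each cell and colour giving the percent of the highest value in the row. The block of high values moves rightward down the rows, from IP-like cells for Neurog2 (1016 CPM) and Eomes (924 CPM) to migrating and layer classes for Neurod2 and Neurod6.

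The level that free RNA can give was read from classes that should lack these genes. In E18 MGE interneuron-like cells the 8 bHLH and T-box members summed to 37.3 CPM, of which Neurod6 made 26.3 CPM (16.9 to 39.1), and Eomes was at 0 UMIs. Neurod6 in stem-like cells, at 23.4 CPM (12.5 to 40.1), was no higher than this background, and its values in E18 OPC-like cells (25.2 CPM) and microglia-like cells (24.8 CPM) were the same in size. Neurod6 in IP-like cells, at 656 CPM, was far above it. At P2 the highest value of any of the 8 was 2.24 CPM in microglia-like cells, 1.71 CPM in MGE interneuron-like cells and 8.36 CPM (Neurod2) in striatal neuron-like cells, where most of its UMIs came from 1 cell.

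To order the genes without classes, 2134 E18 cells of the excitatory lineage were ranked by a neuron panel against a progenitor panel of 16 genes each, none of them a member, and divided into 10 bins of about equal size. By the mean bin of its CPM over the axis, the order was Neurog1 (1.00), Neurod4 (1.69), Eomes (1.90), Mfap4 (1.99), Neurog2 (2.04), Neurod1 (3.69), Insm1 (3.72), Tbr1 (5.53), Neurod2 (5.77) and Neurod6 (6.14). Eomes, Mfap4 and Neurog2 lay within 1.90 to 2.04, and Neurod1 and Insm1 within 3.69 to 3.72, so neighbours inside these groups are not separated by this measure. The gaps between the groups were larger. The place of Neurog1 rests on 4 UMIs and that of Neurod4 on 23.

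With 20 bins, a resolution added after the data were seen, the peaks separated further. Neurog2 stood at 39.7 CPM in the first bin, 664 CPM (608 to 724) in the second, 279 CPM (240 to 323) in the third and 31.8 CPM in the fourth. Eomes stood at 33.7, 342 (303 to 386), 481 (429 to 537) and 176 CPM in the same 4 bins. Neurog2 thus peaked 1 bin before Eomes, with intervals that did not overlap between the second and the third bin in either gene. By mean bin over the same 20 bins, Neurog2 (3.71) came after Eomes (3.27) and Mfap4 (3.42), so the order of Neurog2 and Eomes depends on the measure. Mfap4 followed the shape of Eomes, at 109, 319, 409 and 159 CPM, and Insm1 also peaked in the third bin at 673 CPM (612 to 739). Neurod1 stood at 1.20, 24.3, 130 (104 to 160) and 202 CPM (166 to 244), and was at 74.7 CPM in the fifth bin. Tbr1 peaked with it in the fourth bin, at 228 CPM, and then remained between 77.6 and 164 CPM. Neurod2 reached its highest value in the sixth bin, at 1176 CPM, while Neurod6 had no clear peak and lay between 1129 and 1482 CPM from the fourth bin on.

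The genes differed most in what remained at the neuronal end. As a percent of its own peak, the last of the 20 bins held 0.355% for Neurog2, 1.44% for Mfap4, 5.84% for Neurod1 and 8.58% for Insm1, and Eomes had 0 UMIs there. It held 54.8% for Tbr1, 63.3% for Neurod2 and 86.3% for Neurod6. Insm1 was still found in 30.2% and Neurod1 in 7.55% of the cells of that bin. Neurod4 and Neurog1 had 0 UMIs there. The early bins mix classes. The second bin was 39.3% cycling, 32.7% IP-like and 28.0% stem-like cells, and the third was 50.5% IP-like and 28.0% migrating-like cells.

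**Figure D2:**
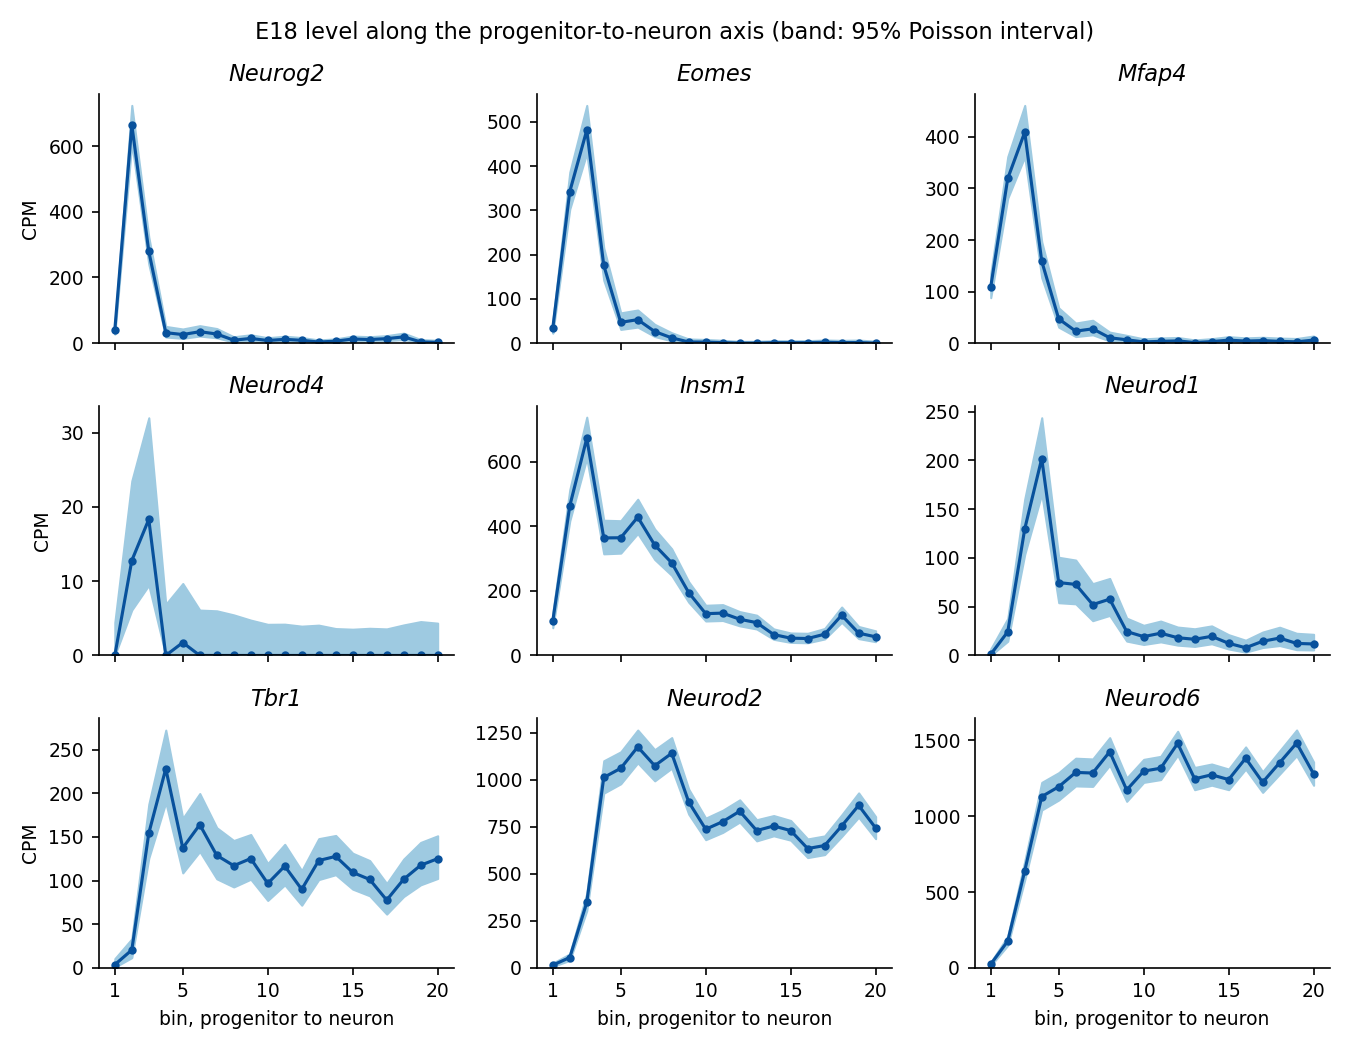
E18 level in CPM of 9 genes along the progenitor-to-neuron axis in 20 bins of cells, with bands for the exact 95% Poisson interval. Neurog2 peaks in the second bin (664 CPM), Eomes in the third (481 CPM), Neurod1 and Tbr1 in the fourth (202 and 228 CPM), while Neurod2 and Neurod6 stay high to the last bin.

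Co-detection in single cells was counted after thinning each cell to 3000 UMIs, which left 2179 P2 cells and 2384 E18 cells (117 and 112 shallower cells were left out). A missing UMI at this depth does not show that a gene is silent, so each share is given with the share in cells without the first gene. The early trio occurred together. Neurog2 was found in 44.9% (37.4 to 52.6) of 176 E18 cells with an Eomes UMI and in 3.80% of cells without one. Eomes was found in 48.5% (40.6 to 56.4) of 163 cells with Neurog2 and in 4.37% of cells without. Mfap4 was found in 57.4% (49.7 to 64.8) of Eomes cells and in 6.16% of cells without Eomes. Without thinning the share of Eomes cells with Neurog2 was 50.5% of 222. In MGE interneuron-like cells, which should lack the series, Neurog2 was found in 0.645% and Eomes in 0 of 155 cells, but Neurod6 in 7.74% (4.06 to 13.1). Their median before thinning was 4962.5 UMIs, against 5852 UMIs in IP-like cells.

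Within the IP-like class the shares with and without Eomes were close, although only 17 cells there lacked an Eomes UMI. Neurog2 was found in 73.8% of the 80 cells with Eomes and in 70.6% of those without. Mfap4 was found in 64 of the 80 cells with Eomes and in 70.6% (44.0 to 89.7) of those without.

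Eomes cells also held the next steps of the series. Neurod1 was in 34.1% (27.1 to 41.6) of Eomes cells and in 6.43% of the others, and Insm1 was in 71.6% against 30.1%. Neurod6 was in 76.7% of Eomes cells and in 75.4% of the others, and Eomes was in 7.50% (6.33 to 8.82) of 1800 Neurod6 cells and in 7.02% of cells without Neurod6. The shares with and without the other gene were thus close when counted over all cells. The cells without Eomes include classes outside the excitatory lineage, such as MGE interneuron-like cells, where Neurod6 was in 7.74% of 155. Among excitatory classes Neurod6 was in 73.2% of 97 IP-like cells, less than in the migrating-like and layer classes given below. The close shares therefore do not describe the lineage alone. Neurod1 cells had higher shares of both earlier and later genes. Of 202 such cells, 29.7% also had Eomes (5.32% without Neurod1), 15.3% Neurog2 (6.05% without), 38.6% Tbr1 (21.3% without) and 90.6% Neurod6 (74.1% without). The late pair had the highest share of the pairs plotted, with Neurod6 in 94.1% of 1608 Neurod2 cells and in 37.0% of cells without Neurod2. Neurod6 was found in 95.4% of all migrating-like, 96.0% of upper-layer-like and 90.8% of deep-layer-like cells. The 94.1% is thus near the share in these classes as a whole.

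Eomes cells also had higher shares of a radial glial gene and of the neuronal gene Slc17a6, but not of the neuronal gene Dcx. Their shares of inhibitory genes were lower. Pax6, the radial glial factor upstream of Neurog2, was in 39.2% of Eomes cells and in 8.74% of the others. Slc17a6, the vesicular glutamate transporter of young neurons, was in 25.0% against 6.84%, while Dlx2 and Gad2, a factor and an enzyme of inhibitory cells, were in 1.14% against 8.42% and in 2.27% against 5.66%. Dcx was in 50.6% of Eomes cells against 56.5% of the others, with intervals that overlap. Top2a, a topoisomerase of dividing cells, was in 5.68% of Eomes cells against 2.85%, and in 0.495% of Neurod1 cells against 3.30%. Mki67, also a gene of dividing cells, was in 4.55% of Eomes cells against 3.85%, and in 1.98% of Neurod1 cells against 4.08%.

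Over Neurog2, Eomes, Neurod1 and Neurod6, all 16 possible combinations occurred among the excitatory-lineage cells, in very unequal numbers. Of 2065 E18 cells of these classes, 1453 (70.4%) had Neurod6 alone of the 4, 123 (5.96%) had Neurod1 with Neurod6 and 227 (11.0%) had none. All 4 genes together were found in 19 cells (0.920%), and Neurog2 with Eomes and neither of the others in 22 cells (1.07%). At least 3 of the 9 members other than Insm1 were found in 89.7% of 97 IP-like cells and 46.5% of 791 migrating-like cells. They were found in 28.4% of deep-layer-like cells, 23.8% of upper-layer-like cells and 10.2% of cycling cells. In MGE interneuron-like cells the count was 0 of 155, with an exact upper limit of 2.35%. The share was highest in the IP-like class of those named.

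**Figure D3:**
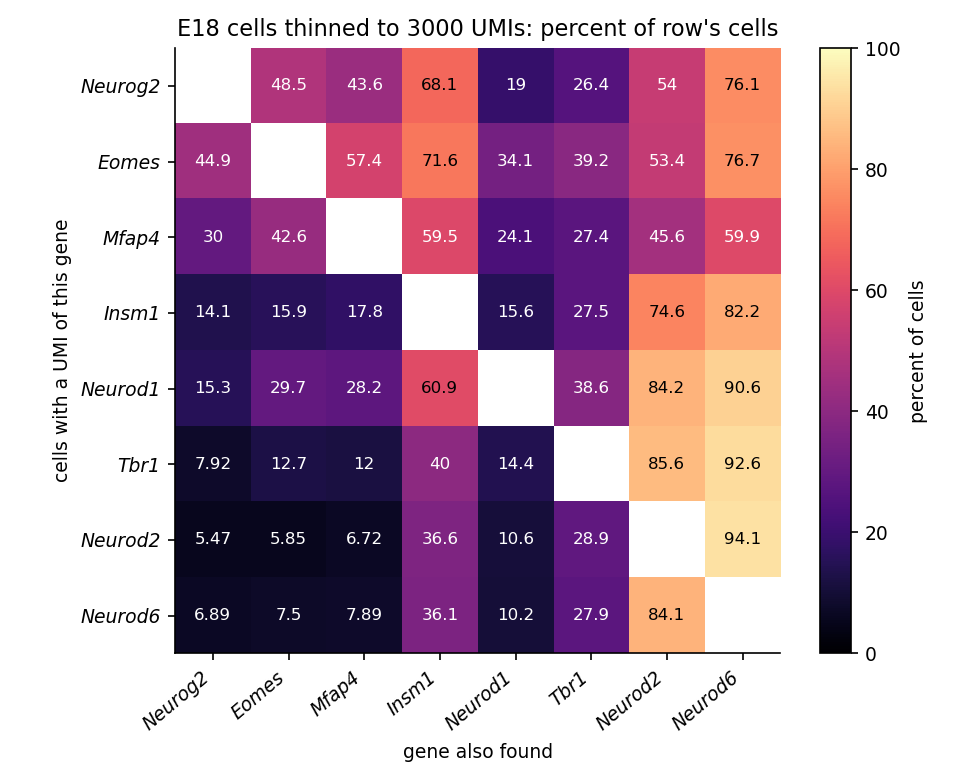
Percent of E18 cells with a UMI of the gene in the row that also had a UMI of the gene in the column, after thinning to 3000 UMIs per cell. Neurog2, Eomes and Mfap4 form a block at the upper left (44.9% and 57.4% in Eomes cells), and Neurod2 and Neurod6 form one at the lower right (94.1% and 84.1%).

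For each member, the 3 genes most like it were named by Pearson's r of log2(CPM + 10) over the 17 E18 clusters, among 6302 genes that reached 50 CPM in a cluster and were not members themselves. The clusters come from 1 library and differ in depth, so r is only a description. Neurog2 was nearest to Heg1 (0.954), Celsr1 (0.907) and Pdzd11 (0.893). Eomes was nearest to Btbd17 (0.913), Snhg18 (0.912) and Serping1 (0.908), and Mfap4 to Btbd17 (0.960), Vps37b (0.950003) and Tead2 (0.930). Btbd17 was thus shared by both. Insm1 was nearest to Cdk4 (0.922), a kinase of the cell cycle, then to Ankrd6 (0.905) and Trp53 (0.904). Neurod1 was nearest to 2600014E21Rik (0.934), Slc17a6 (0.927) and Carmil3 (0.914), and Tbr1 to Celsr2 (0.909), Lix1 (0.885) and Enc1 (0.881). Zbtb18, a zinc-finger repressor of pyramidal neurons, led the list for both Neurod2 (0.952) and Neurod6 (0.945). Between members, r was 0.974 for Neurod2 with Neurod6, 0.886 for Neurog2 with Eomes, 0.885 for Eomes with Mfap4 and 0.904 for Neurod2 with Tbr1. Neurod2 with Mfap4 gave -0.285.

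At P2 no IP-like class was found, and the late members were gathered in 1 cluster of 214 migrating excitatory-like cells out of 2296. This cluster held 96.4% of the 612 P2 UMIs of Neurod1, 92.0% of the 1402 of Neurod2, 89.7% of the 891 of Neurod6 and 88.9% of the 818 of Tbr1. It held 71.9% of the 420 Eomes UMIs and 52.5% of the 141 Neurog2 UMIs, so the earlier genes were less confined to it. Insm1 was the reverse, with 7.97% of its 7206 UMIs in the cluster, 29.9% in cycling cells and 27.3% in inhibitory intermediate progenitor-like cells. Neurod4 had 14 of its 23 UMIs in inhibitory intermediate progenitor-like cells, 8 in cycling cells and 1 in the migrating-like cluster.

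The P2 migrating-like cluster was divided into 4 parts by the same axis, and only part of the E18 order was seen in it. Eomes stood at 210, 109, 70.5 and 41.2 CPM from the progenitor to the neuron end. Neurod1 stood at 164, 287, 314 and 148 CPM, highest in the middle parts. Neurod2 stood at 366, 523, 544 and 606 CPM, and Neurod6 at 259, 261, 357 and 380 CPM. Neurog2 stood at 44.3, 27.9, 12.8 and 24.3 CPM and Mfap4 at 46.8, 31.1, 11.2 and 11.2 CPM, both highest at the progenitor end. Tbr1 stood at 274, 356, 239 and 247 CPM, highest in the second part. The Neurod1 intervals in the second part (247 to 332) and the third (271 to 361) overlap, so Tbr1 and Neurod1 are not ordered here. Insm1 stood at 190, 219, 258 and 228 CPM. Its interval in the third part (220 to 301) overlaps those of the second (184 to 258) and the fourth (190 to 273), so its peak is not placed. By peak bin at E18, Tbr1 peaked with Neurod1 and Insm1 peaked with Eomes. The share of EYFP-positive cells over the 4 parts was 81.5%, 79.6%, 88.7% and 79.2%, without a trend. The axis is a comparison of other genes, and each part has 53 or 54 cells.

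At P2, at the same 3000 UMIs per cell, the late genes were again found together when counted over all cells. Neurod2 was found in 70.4% of 125 Neurod6 cells and in 4.04% of cells without Neurod6. Of the 125 cells, 114 were in the migrating-like cluster, where Neurod2 was found in 78.0% of all 200 cells. The contrast over all cells thus does not show a tie of this pair inside the cluster. Tbr1 was found in 62.8% of 94 Neurod1 cells and in 2.45% of the others, and inside the migrating-like cluster in 63.0% against 38.0%. Neurog2 was in 11.5% (4.35 to 23.4) of 52 Eomes cells, against 0.470% of cells without Eomes. Eomes was in 24.0% (16.8 to 32.5) of Neurod6 cells at P2 and in 1.07% of cells without. Of 200 migrating-like cells at this depth, 36 (18.0%) had Neurod1 with Neurod6, 35 (17.5%) had Neurod1 without the other 3, and 1 (0.500%) had Neurog2, Eomes, Neurod1 and Neurod6 together.

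Set against E18, the P2 migrating-like cells had more Eomes, Neurod1 and Tbr1 and less Insm1, Neurod2 and Neurod6. Eomes stood at 116 CPM in the 214 P2 cells, against 40.1 CPM in the 831 E18 cells, a log2 ratio of 1.54 (1.27 to 1.81). Neurod1 stood at 227 against 77.4 CPM (log2 ratio 1.55, 1.36 to 1.75) and Tbr1 at 280 against 143 CPM (0.97, 0.82 to 1.12). Neurod2 stood at 497 against 1158 CPM (-1.22, -1.31 to -1.13) and Neurod6 at 308 against 1228 CPM (-1.995, -2.10 to -1.89). Insm1 stood at 221 against 371 CPM (-0.74, -0.88 to -0.61), lower at P2 like the late pair. Neurog2 was at 28.5 against 24.0 CPM, with an interval that includes no difference (0.25, -0.20 to 0.69). Of the 8 members with 10 or more UMIs over both groups, 2 were at least 2-fold higher at P2, where 17.8% of 11588 genes were, and 2 at least 2-fold lower, where 6.48% were. The median log2 ratio over those genes was 0.15.

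Part of this rests on which E18 cells are used. Against migrating cluster 5 alone, the E18 cluster nearest to the progenitors and a comparison added after the data were seen, Eomes was lower at P2, with a log2 ratio of -0.72 (-0.997 to -0.44). Neurod1 and Tbr1 then lay near 0, at 0.09 (-0.15 to 0.34) and 0.21 (-0.01 to 0.44). Neurod2 and Neurod6 remained lower at P2, at -0.87 (-0.997 to -0.74) and -1.89 (-2.03 to -1.76), and Mfap4 was at -2.75 (-3.18 to -2.33). Neurod6 was thus lower in the P2 cluster under both choices. In this comparison 0 of 8 members were at least 2-fold higher (20.1% of 10787 genes) and 2 at least 2-fold lower (5.65%).

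Cells of the clusters named cycling had lower levels of most members at P2. P2 cells with division genes in other classes are not counted here. Among them are inhibitory intermediate progenitor-like clusters 14 and 9, with Top2a and Mcm3 among their leading genes and Eomes at 18.5 and 8.27 CPM. In 204 P2 cycling cells, Neurog2 stood at 0.988 CPM, against 98.5 CPM in 110 E18 cycling cells (log2 ratio -6.64, -8.29 to -5.37). Eomes stood at 5.14 against 56.4 CPM (-3.46, -4.18 to -2.77), and Neurod6 at 1.58 against 74.6 CPM (-5.56, -6.82 to -4.51). Neurod1 had 1 UMI at P2, which gave 0.198 against 8.61 CPM (-5.45, -10.90 to -2.59). Mfap4 stood at 32.4 against 121 CPM (-1.90, -2.24 to -1.55). Insm1 differed little, at 426 CPM in P2 cycling cells and 457 CPM in E18 cycling cells (-0.10, -0.25 to 0.04). Neurod4, with 8 UMIs at P2 and 3 at E18, was not 2-fold lower either. In all, 7 of 9 members were at least 2-fold lower at P2, where 14.7% of 11647 genes were and the median log2 ratio was 0.05. Of these 7, Neurog2, Neurod1, Neurod2, Neurod6 and Tbr1 had 9 or fewer UMIs at P2 and reached the minimum of 10 UMIs over both groups only with those of E18, so the count only describes. Neurog1, with too few UMIs, was not compared. With no doublet limit Tbr1 was at -0.80, Neurod1 at -1.74 and Neurod2 at -1.86, and Neurod4 (-1.05) took the place of Tbr1 among the 7. The cause was not tested. The P2 levels of Neurog2, Neurod1, Neurod2, Neurod6 and Tbr1 in these cells were all under 2.24 CPM, the highest level of a bHLH or T-box member in P2 microglia-like cells.

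The cycling cells of the libraries were also of different kinds. Their median score of the neuron panel against the progenitor panel was 0.741 and 0.894 in P2 clusters 17 and 5, and -3.13 at E18. The 9 inhibitory neuroblast markers summed to 3384 CPM in P2 cycling cells and 560 CPM in E18 cycling cells, with 0 of the 9 at 0 UMIs at P2. The OPC markers summed to 53.8 CPM at P2 and 944 CPM at E18. The part of this make-up in the lower members was not tested. Of 10 genes of the inhibitory counterpart of the series, 8 were at least 2-fold higher at P2 (17.4% of all genes), among them Dlx6 (log2 ratio 3.75) and Gad2 (2.99), and the list's median was 2.45. Of all genes 14.7% were at least 2-fold lower, and 3 of 6 pallial progenitor factors were, with Emx1 at -6.36 and Emx2 at -2.10. Of 10 Notch pathway genes 4 were at least 2-fold lower, Hes1 at -7.98 and Hes5 at -5.10, which hold back neurogenesis, while Notch1 itself was at -0.01. Of 7 bHLH partners and Id antagonists 3 were at least 2-fold lower, with Id3 at -4.49 and Id1 at -1.37, and Tcf12, an E-protein partner, was higher (1.85).

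In stem-like cells Neurog2, Insm1 and Mfap4 were lower at P2. Of 7 members that could be compared, 5 were at least 2-fold lower in 76 P2 cells than in 92 E18 cells (5.87% of 10796 genes), namely Neurog2, Eomes, Insm1, Mfap4 and Neurod6. The Neurod6 level at E18, 23.4 CPM, is that of the background given above, so nothing is read from its difference. Neurog2, Eomes and Mfap4 had 3, 8 and 9 UMIs at P2 and passed the minimum through E18, so this count also only describes. It became 3 at a mitochondrial share of 5% or less and 8 at resolution 0.5, and with no doublet limit the Eomes log2 ratio, -1.76 (-3.30 to -0.26), reversed to 2.28. Mfap4 stood at 5.999 against 175 CPM (log2 ratio -4.86, -6.04 to -3.88) and Neurog2 at 2.00 against 63.1 CPM (-4.98, -7.32 to -3.31). Tbr1 and Neurod2 had intervals that include no difference, at 0.30 (-1.66 to 2.80) and -0.43 (-1.74 to 0.998), and their E18 levels in this class were near the background given above. Inhibitory neuroblast markers summed to 307 CPM in P2 and 97.3 CPM in E18 stem-like cells. In OPC-like cells 5 of the 10 members had 10 or more UMIs, and these 5 were at least 2-fold lower in 81 P2 cells than in 52 E18 cells (6.05% of 10464 genes). A member that passes this minimum through E18 alone has to differ, and Neurod6 (25.2 CPM at E18) was at background there. The count only describes, with Mfap4 at 10.2 against 193 CPM and Neurog2 at 10.2 against 39.1 CPM.

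**Figure D4:**
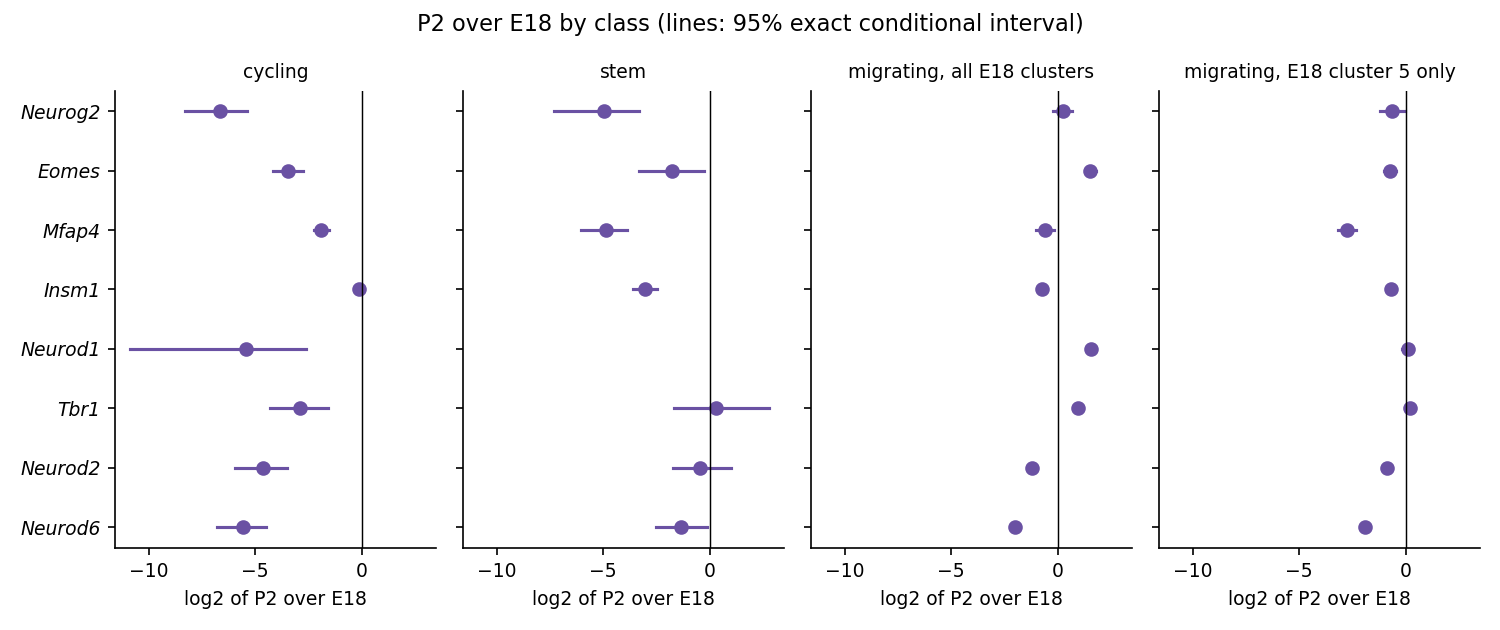
Log2 ratio of CPM, P2 over E18, for 8 genes in 4 comparisons, with exact conditional 95% intervals as lines. Points left of 0 are lower at P2. Neurog2 is at -6.64 in cycling and -4.98 in stem-like cells, while Eomes changes side between all E18 migrating clusters (1.54) and cluster 5 alone (-0.72).

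EYFP marks cells of cortical origin at P2, and a cell was called EYFP-positive with 1 or more EYFP UMI. Of 2296 P2 cells 838 (36.5%) were positive. The share was 82.2% (76.5 to 87.1) in the migrating-like cluster, 55.3% in stem-like, 56.8% in OPC-like, 50.8% in inhibitory intermediate progenitor-like and 12.7% in striatal neuron-like cells. It was 0 of 43 in microglia-like cells, with an exact upper limit of 8.22%. The 176 EYFP-positive migrating-like cells had a median of 13199.5 UMIs and the 38 EYFP-negative ones 4782.5 UMIs, and whether the shallow cells lack EYFP or only its UMIs was not tested.

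Over all P2 cells most members were higher in EYFP-positive cells. Eomes stood at 24.5 CPM in 838 EYFP-positive cells and at 1.55 CPM in 1458 EYFP-negative cells, a log2 ratio of 3.98 (3.45 to 4.56). Neurod6 stood at 50.98 against 4.004 CPM (3.67, 3.34 to 4.02), Neurod2 at 78.4 against 7.76 CPM (3.34, 3.10 to 3.59) and Neurod1 at 33.2 against 4.204 CPM (2.98, 2.65 to 3.33). Neurog2 stood at 7.61 against 1.00 CPM (2.93, 2.24 to 3.69) and Tbr1 at 44.1 against 5.81 CPM (2.93, 2.64 to 3.22). So 6 of 9 members were at least 2-fold higher in EYFP-positive cells, where 2.98% of 15744 genes were. The other 3 were Insm1 (0.58, 0.51 to 0.64), Mfap4 (0.13, -0.09 to 0.35) and Neurod4 (-0.05, -1.40 to 1.25). None of the 9 was lower by 2-fold, where 7.58% of genes were.

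Residual expression outside the migrating-like cluster was also on the EYFP side for Neurog2 and Eomes, and for the later Tbr1 and Neurod6. In 662 EYFP-positive cells outside it Eomes stood at 8.05 CPM, against 0.456 CPM in 1420 EYFP-negative cells (4.14, 3.17 to 5.31). Neurog2 stood at 4.28 against 0.456 CPM (3.23, 2.21 to 4.43). Neurod6 was at 5.24 against 1.06 CPM (2.30, 1.58 to 3.08) and Tbr1 at 4.95 against 1.21 CPM (2.03, 1.33 to 2.76), while Neurod1 was near the floor in both, at 0.813 and 0.557 CPM (0.55, -0.80 to 1.89). Here 5 of 9 members were at least 2-fold higher, where 2.85% of 15634 genes were. Mfap4 and Neurod4, also early on the E18 axis, were not among the 5. Few cells carried much of these sums. In EYFP-positive cells outside the cluster, 13 cells with 3 or more Eomes UMIs held 77 of them. Single cells held 11, 9 and 8 Tbr1 UMIs, and 18 and 14 UMIs of Neurod2, also among the 5. The EYFP-positive cells had a median of 17251 UMIs and the EYFP-negative cells 11164.5 UMIs, and the part of depth was not tested. Of the 6 pallial progenitor factors 3 were at least 2-fold higher too, with Emx1 at 3.84 and Pax6 at 1.55. Of the 10 inhibitory genes 1 was at least 2-fold higher, Sp8 at 1.10, and the list's median was 0.08. Cells with at least 3 of the 9 members were nonetheless rare outside the cluster, at 3 of 654 EYFP-positive cells (0.459%) and 1 of 1325 EYFP-negative cells (0.0755%).

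**Figure D5:**
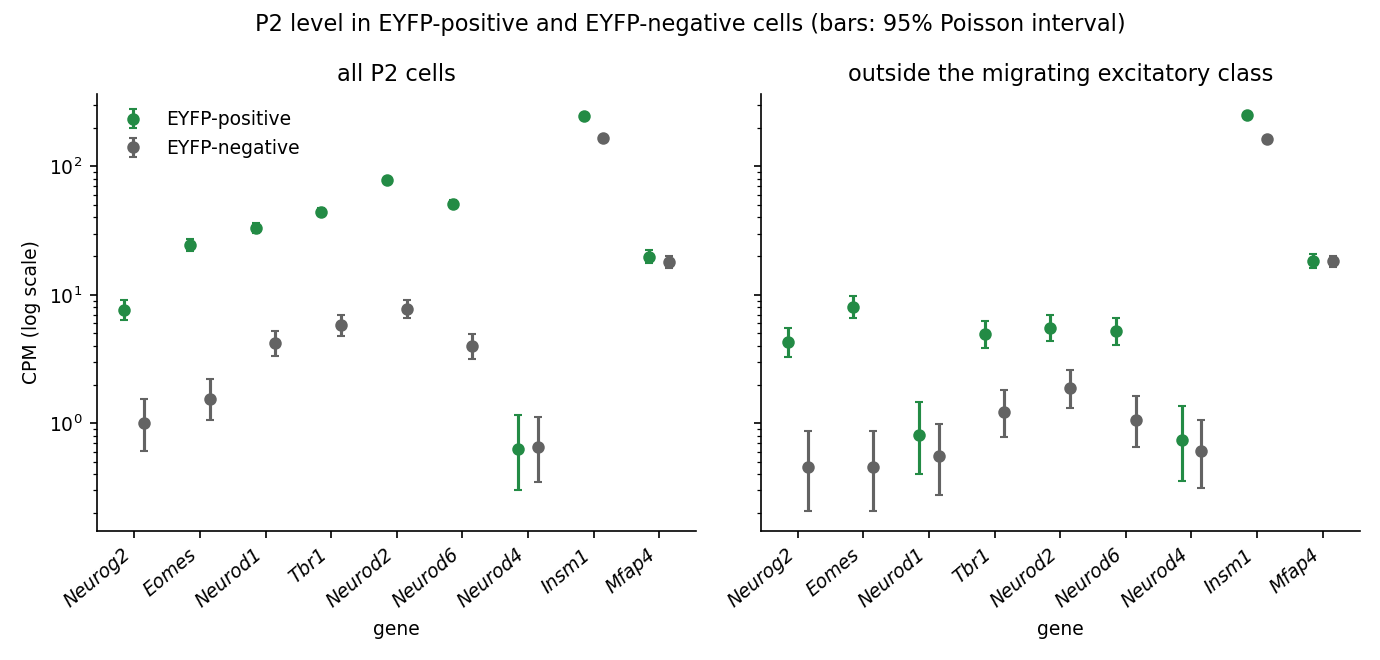
P2 level in CPM (log axis) of 9 genes in EYFP-positive cells (left point of each pair, green) and EYFP-negative cells (right point, grey), in all cells and outside the migrating excitatory-like cluster, with exact 95% Poisson intervals. Eomes is at 24.5 against 1.55 CPM in all cells and at 8.05 against 0.456 CPM outside the cluster, while the points of Mfap4 lie close together in both panels.

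Inside the migrating-like cluster no member was clearly higher in EYFP-positive cells. Tbr1 stood at 268 CPM in EYFP-positive cells, against 411 CPM in EYFP-negative cells (-0.62, -0.93 to -0.29), and Neurod1 at 218 against 326 CPM (-0.58, -0.94 to -0.21). The intervals of Eomes (0.27, -0.36 to 0.96) and Neurog2 (-0.89, -1.82 to 0.19) include no difference, and 1 of 8 members was at least 2-fold higher, where 6.72% of 10395 genes were. That member was Mfap4, whose interval also includes no difference (1.08, -0.53 to 3.39). The EYFP-negative cells here are the shallow ones described above, and the part of depth was not tested.

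Inhibitory intermediate progenitor-like cells, which use Dlx2, held a trace of Eomes that followed EYFP. There were 65 Eomes UMIs in EYFP-positive cells (23.9 CPM) and 1 UMI in EYFP-negative cells (0.418 CPM), a log2 ratio of 5.84 (3.31 to 11.17). Tbr1 had 25 UMIs in EYFP-positive and 0 in EYFP-negative cells of this class, and Neurog2 had 11 and 2. In cycling cells Eomes had 24 UMIs in EYFP-positive and 2 in EYFP-negative cells (4.07, 2.06 to 7.20). These sums come from few cells. Outside the migrating-like cluster 13 cells had 3 or more Eomes UMIs, of which 8 were inhibitory intermediate progenitor-like, 3 cycling, 1 stem-like and 1 in an unnamed cluster.

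All 13 of these Eomes cells were EYFP-positive, against 42.1% of 534 cells of the same clusters with no Eomes UMI. They also carried other members. Neurog2 stood at 25.5 CPM in the 13 cells and 1.79 CPM in the 534, Tbr1 at 67.1 against 1.30 CPM, Neurod6 at 62.5 against 1.63 CPM and Neurod1 at 13.9 against 0.163 CPM. Slc17a6 stood at 41.7 against 0.0815 CPM and Pax6 at 439.9 against 145 CPM. The inhibitory genes were lower but present, with Dlx2 at 132 against 372 CPM and Gad2 at 141 against 193 CPM. These are sums over cells, and of the 13, all with Eomes, Gad2 was found in 10, Dlx2 in 6 and Neurog2 in 6. Their median was 31059 UMIs, against 23057 UMIs in the others, and whether some of them were 2 cells in 1 droplet was not tested. The cells come from 1 library and were picked by their Eomes count.

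Neurog2 also appeared in EYFP-positive OPC-like cells. All 15 Neurog2 UMIs of OPC-like cells at P2 came from 11 EYFP-positive cells, against 0 UMIs in EYFP-negative OPC-like cells. Unnamed cluster 10, of 107 cells led by Olig1, Olig2, Dll3 and Egfr, had Neurog2 at 12.95 CPM (8.01 to 19.8), from 21 UMIs in 8 cells. Over all unnamed cells 1 cell held 8 of the 25 Neurog2 UMIs. Eomes had 2 UMIs in the same OPC-like cells, so Neurog2 was present there with very little Eomes. In striatal neuron-like cells the late genes came mostly from 1 EYFP-positive cell, with 18 of the 24 Neurod2 UMIs, 9 of the 12 Tbr1 UMIs and 7 of the 10 Neurod6 UMIs of the class.

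Mfap4 and Insm1 are neither bHLH nor T-box factors, and their P2 pattern by EYFP differed from that of Eomes. Insm1 was higher in EYFP-positive than in EYFP-negative inhibitory intermediate progenitor-like cells, at 446 against 315 CPM (0.50). Mfap4 was lower there, at 33.9 against 50.1 CPM (-0.56, -0.97 to -0.16). Both were thus found in EYFP-positive and EYFP-negative cells of this class. Among matrix genes of a fixed list, 3 of 7 were at least 2-fold lower in P2 than in E18 cycling cells, Mfap4 among them (14.7% of all genes), with Efemp2 at -2.22 and Fbln1 at 0.59. The list's median of -0.04 was close to the 0.05 of all genes.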

How the data were processed

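Gene by cell UMI count matrices were deposited for 1 P2 and 1 E18 library of polyadenylated RNA. Per the submitters' processing notes the reads were processed with Cell Ranger 4 (4.0.0 per the file headers) on mm10. The deposited counts are raw whole numbers, and the deposited gene and barcode files contain only names (unit: other). No kit chemistry or EYFP reference sequence is stated.

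Cells with at least 500 genes and at most 10% mitochondrial UMIs were kept (336 barcodes removed at P2, 291 at E18). Scrublet's own threshold marked 4 and 7 cells, so the highest-scoring cells were dropped instead (146 and 135), and doublets remain possible. Each library was clustered alone (scanpy 1.11.5, leidenalg 0.10.2, igraph 0.11.9, 2000 variable genes without the 10 members, 30 components, 15 neighbours, resolution 1). A class name needed at least 4 detected markers and a score of at least 0.35, a rule chosen after the data were seen. The members and lists were chosen with earlier results of these data known.

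CPM is the summed count of a gene in each 1000000 UMIs of the group. Intervals are Poisson, conditional and Clopper-Pearson (scipy 1.17.1, numpy 2.4.6, pandas 2.3.3). The floor for 0 UMIs is 3 UMIs over the group. With 1 library per group no test was run. Genes with at least 10 UMIs over both groups were compared, and a 2-fold difference was counted. Within each fixed list the highest and lowest genes by ratio were eligible to be named, and some of them are not reported here. Components came from scikit-learn 1.9.0. The ratio script was tested on simulated data. Alternatives were other normalization (edgeR 4.0.16 TMM), filters, thinning depths, bins, panels, resolutions and EYFP thresholds.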

Additional observations from a re-analysis of the deposited data

Results flagged for a closer look

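In the pairs below a gene's difference lay on opposite sides of 0 in different cell classes, and the difference between classes was not tested, since each group is 1 library.

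Eomes was higher at P2 than at E18 in migrating-like cells (log2 ratio 1.54, 1.27 to 1.81). It was lower in cycling cells (-3.46, -4.18 to -2.77), stem-like cells (-1.76, -3.30 to -0.26) and OPC-like cells (-4.62, -7.82 to -2.45). The OPC-like value rests on 12 UMIs in 2 E18 cells and 2 UMIs in 1 P2 cell. The stem-like value rests on 10 UMIs in 5 E18 cells and 8 UMIs in 4 P2 cells. The migrating-like value changed to -0.72 against E18 cluster 5 alone, and the stem-like value to 2.28 with no doublet limit. Neurod1 was higher at P2 in migrating-like cells (1.55) and lower in cycling cells (-5.45), where P2 had 1 UMI. Tbr1 was higher at P2 in migrating-like cells (0.97, 0.82 to 1.12) and lower in cycling cells (-2.91, -4.30 to -1.60).

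Between EYFP-positive and EYFP-negative P2 cells, Tbr1 was higher in cycling cells (3.49, 0.59 to 8.96, from 8 and 1 UMIs) and in striatal neuron-like cells (3.93, 1.92 to 6.45), where 1 EYFP-positive cell gave all 9 UMIs. It was lower in EYFP-positive migrating-like cells (-0.62, -0.93 to -0.29).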

How the results depend on the processing

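The order of the members held in all 45 pairs with 5 bins, 20 bins, a mean of CPM per cell, odd-numbered panel genes and resolution 2, and in 44 pairs with even-numbered panel genes, where Insm1 came before Neurod1. It held in 34 pairs at a mitochondrial share of 5% or less, where Neurog1 had no value, in 42 without a doublet limit, in 44 with the members in the clustering and in 43 at resolution 0.5. Co-detection of Neurog2 in Eomes cells was 57.4% when thinned to 5000 UMIs, and that of Eomes in Neurod6 cells was 6.13% at 2000 UMIs and 9.68% without thinning. The count of members at least 2-fold higher in EYFP-positive cells stayed at 6 and the number of members lower in P2 cycling cells at 7 in every alternative that gave a value, although with no doublet limit Neurod4 took the place of Tbr1. The stem-like count of 5 became 3 at a mitochondrial share of 5% or less and 8 at resolution 0.5, where no cycling class was named in both libraries. With no doublet limit the Eomes log2 ratio in stem-like cells, P2 over E18, reversed to 2.28, and cycling ratios were nearer 0 (Neurod1 -1.74, Neurod2 -1.86, Tbr1 -0.80). The causes were not tested. With the mean of CPM per cell the EYFP log2 ratio of Eomes was 2.76 and of Neurod2 2.35. Over single genes 245 values kept their size and direction, 25 moved and 1 reversed. TMM moved the log2 ratios by -0.01, 0.05 and -0.15. No paired analysis was possible because each age has 1 library. Depth limits Neurog1 and Neurod4 most, with 0 and 23 UMIs at P2 and 4 and 23 at E18.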

Other observations

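Outside the series, some factors of layer identity also differed between the P2 migrating-like cluster and its E18 counterpart. Fezf2, a factor of subcerebral neurons, stood at 5.01 CPM in P2 cells, against 20.5 CPM in E18 cells (log2 ratio -2.03, -2.99 to -1.19). Tle4 and Sox5, both of deep-layer neurons, were higher at P2, at 55.9 against 10.7 CPM (2.39, 1.91 to 2.89) and at 90.2 against 34.7 CPM (1.38, 1.08 to 1.68). Tle4 was also a leading gene of unnamed P2 cluster 7, where Gad2 stood at 623 CPM, so it is not particular to deep-layer neurons in this library. Over the 10 pallial neuron factors, 2 were at least 2-fold higher (17.8% of all genes) and 2 at least 2-fold lower (6.48%). The count of higher factors was thus near the share over all genes. The list's median was 0.42 beside 0.15 over all genes. Of 8 inhibitory genes that could be compared, 8 were at least 2-fold higher in the P2 cluster (17.8% of all genes), led by Gad2 at 40.5 against 0.872 CPM. The part of free RNA in these genes and in Tle4, with inhibitory cells the larger share of that library, was not tested.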
